A study of Sus scrofa with 30 samples.

Results

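The reference genes ACTB, GAPDH, GUSB, HPRT1 and FLOT2 were followed through 5 stages of the sow mammary gland. They are 5 of the 14907 genes to which transcripts of the table could be assigned, and are represented by 16 of its 61773 transcripts. They were taken by name and not by a rule on measured values, but earlier results of these data were known. All 5 stood on the study's list of 15 candidate genes for the normalization of RT-qPCR. The study took GAPDH from that list, with TPT1, as its internal control. It scored the candidates on single transcripts, and its values for the 5 genes match the most abundant transcript of each. For FLOT2 that transcript held 58.6% of the summed units. The scoring used these same animals, so the ranking it gave is not independent evidence of steady expression. FLOT2, GUSB, HPRT1 and ACTB are therefore called candidates here, and GAPDH is the only one of the 5 that was used.

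A reference gene is a transcript whose level is taken to be the same in every sample, so that a target can be divided by it. If the reference itself moves, each target moves the opposite way in the ratio. The 5 genes serve unrelated tasks. ACTB encodes a cytoplasmic actin of the cytoskeleton, and GAPDH encodes the glycolytic enzyme that oxidizes glyceraldehyde 3-phosphate. GUSB encodes the lysosomal enzyme beta-glucuronidase, HPRT1 returns hypoxanthine and guanine to the purine nucleotide pool, and FLOT2 encodes flotillin-2, a scaffold protein of membrane rafts.

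The tissue was mammary parenchyma of multiparous Danish Landrace × Yorkshire half-sibling sows, and no animal carried a transgene or received a treatment. The stages were day 70 (MG, mid-gestation) and day 110 of gestation (LG, late gestation), day 2 (EL, early lactation) and day 10 postpartum (PL, peak lactation), and day 2 after weaning (W2, early involution), with 6 sows each. Sample records and titles disagreed, since mid-gestation stands in the records of the EL samples and early lactation in those of the MG samples. The titles were followed, and if the stage names were right instead, MG and EL would change places in every value given. The 8 milk protein genes analysed made up 11.3% to 16.4% of the units in the samples titled MG and 20.0% to 25.5% in those titled EL. Of these genes PAEP alone stood at 98685 to 148574 units over the samples analysed. The 8 genes summed to 112378 to 163454 units in MG and 104466 to 138450 in W2. Within each stage 3 samples differed from each other by a median of only 1.62% to 1.85%, against 19.6% to 59.8% for pairs of the other 3, and their mean lay within 0.688% to 0.741% of the mean of those others. They were left out, so n = 3 sows per stage throughout.

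Values are TPM, called units here, scaled so that every column has about the same total, and read counts were not used here, so the depth behind a value is unknown. Sample PL 2 stood apart, with 34065 transcripts above 0 against 39524 to 46114 in the other 14 samples, and 59.9% of its units in its 20 most abundant transcripts against 25.6% to 42.96%. The milk protein genes made up 22.6% to 40.8% of the units in PL and 10.5% to 13.9% in W2. Because the total is fixed, all other genes share what is left, so each gene was also described after median-ratio scaling, which divides a sample by the median ratio of 2698 steadily detected transcripts to their geometric mean. The log2 scaling factor averaged 0.22 (MG), 0.05 (LG), -0.10 (EL), -0.45 (PL) and 0.28 (W2). In bulk tissue, fewer cells of a type and less RNA per cell cannot be told apart. Luminal markers KRT8, KRT18, KRT19, EPCAM and CDH1 were above 0 in all 15 samples, whereas KRT7 was listed at 0 in 6.

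As deposited, HPRT1, GUSB and GAPDH changed over the 5 stages and ACTB and FLOT2 did not pass the test. The adjusted p of limma's moderated F test was 0.0019 for HPRT1, 0.0028 for GUSB, 0.0034 for GAPDH, 0.31 for ACTB and 0.85 for FLOT2. These 3 calls among 5 genes stand beside 27.1% of all 14907 genes. After scaling, HPRT1 (adjusted p = 0.0039) and GAPDH (0.029) were called, whereas FLOT2 (0.068), GUSB (0.20) and ACTB (0.75) were not, beside 11.7% of all genes. Without PL 2 the same 3 genes were called as deposited, but after scaling GAPDH was lost (adjusted p = 0.077) and HPRT1 alone was left (0.011). The scaled GAPDH call was also lost without MG 3, MG 6, LG 4, EL 6, PL 6, W2 3 or W2 6 (adjusted p = 0.050 to 0.12), and FLOT2 was called without EL 3 (0.016) or EL 6 (0.042).

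**Figure D1:**
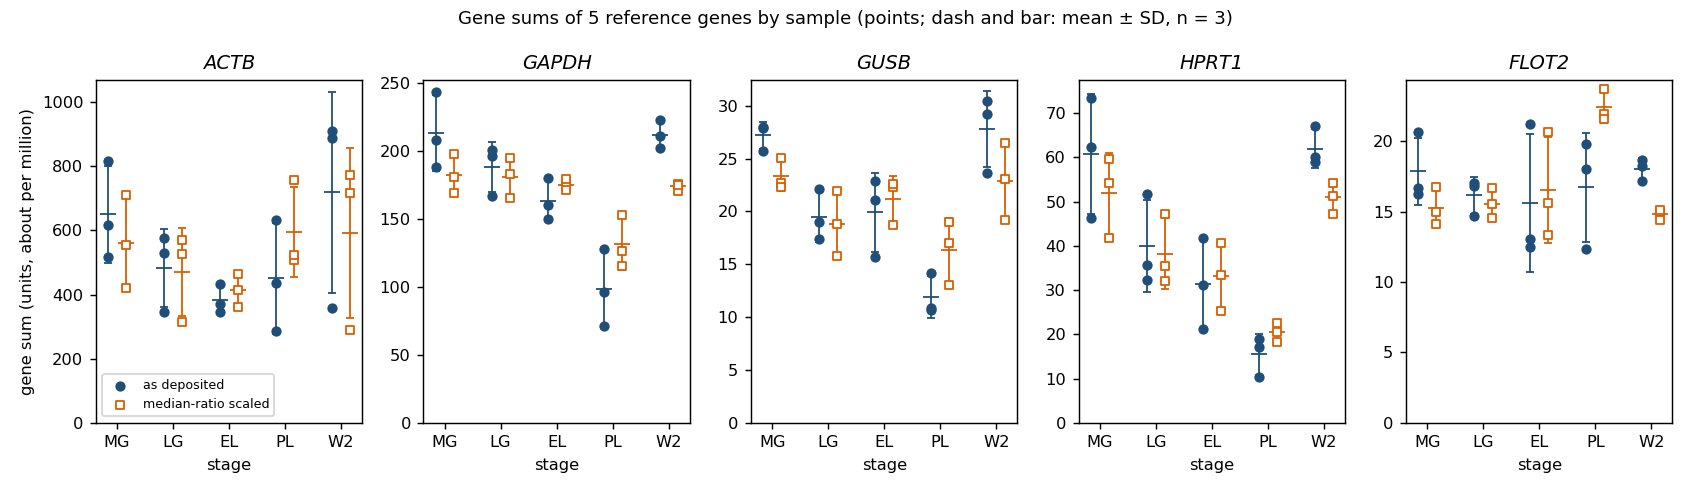
Gene sums of the 5 reference genes in units (vertical axis, from 0) by stage (horizontal axis), for 3 sows per stage. Filled circles are values as deposited, open squares are values after median-ratio scaling, and dashes with bars are means ± SD. HPRT1 averaged 15.4 units in PL and 62.0 in W2 as deposited, while FLOT2 averaged 16.7 and 18.0.

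GAPDH, chromosome 5 from 64129678 to 64135194 in Sscrofa11.1 (gene ID 396823), was the member that the study used. The gene sums of the 3 sows were 188, 244 and 208 units at MG and 196, 167 and 201 at LG. They were 180, 150 and 160 units at EL, 70.9, 127 and 96.3 at PL, and 202, 211 and 222 at W2. All 3 PL sows lay below all 12 others. The stage means were 213 ± 28.1, 188 ± 18.5, 163 ± 15.1, 98.2 ± 28.3 and 212 ± 10.2 (SD, n = 3). GAPDH fell from MG to PL by 1.15 on the log2 scale (SE 0.18, adjusted p = 0.00090 by limma), was lower in PL than in LG (-0.97, 0.0040) and EL (-0.77, 0.026), and rose 2.21-fold from PL to W2 (log2 1.14, SE 0.18, 0.00069). The medians over all genes in PL vs MG and W2 vs PL were -0.62 and 0.71.

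After scaling, GAPDH stayed lowest in PL at 131 ± 19.2 units, against 174 ± 2.76 to 183 ± 14.3 in the other stages. The fall from MG to PL was then -0.48 (SE 0.10, adjusted p = 0.0079), and W2 exceeded PL by 0.41 (SE 0.10, 0.016). The scaled values of 126, 153 and 115 units in PL still lay below the 165 to 198 units of all other sows. Without PL 6 the W2 vs PL difference was 0.32 and no longer called (0.051). Among MG, LG, EL and W2 the scaled differences ran from -0.07 to -0.01 on the log2 scale, and none passed the test.

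GAPDH came from 3 transcripts, and the share of the minor ones differed between samples. The main transcript NM_001206359.1 made up 90.5% of the summed units. Transcript XM_021091114.1 reached 26.9, 16.0 and 42.1 units in W2, which was 13.3%, 7.60% and 18.9% of the gene. It also reached 21.8 units in MG 3, 26.2 in LG 1 and 19.7 in LG 4, and was at or below 2.77 units in the other 9 samples, among them all of EL and PL. XR_002343817.1, a non-coding record, stood at 12.4 to 16.1 units in W2, at 8.49 to 12.3 in the same 3 gestation samples and at or below 3.14 elsewhere. It rose from PL to W2 (log2 3.05, SE 0.57, adjusted p = 0.0078 over all transcripts, of which 7.13% were called), whereas XM_021091114.1 did not pass (4.95, SE 1.41, 0.053).

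The size of the GAPDH difference after weaning depended on which transcripts were counted. The main transcript averaged 199.7 ± 13.0 units at MG, 165 ± 4.76 at LG, 160.0 ± 14.2 at EL, 96.4 ± 27.0 at PL and 169.6 ± 8.31 at W2. As deposited it rose from PL to W2 (log2 0.85, SE 0.19, adjusted p = 0.017). After scaling its W2 vs PL difference was 0.12 with a 95% interval of -0.13 to 0.36 (adjusted p = 0.64), beside the 0.41 of the gene sum. Transcripts of a gene share most of their reads, so their split is an estimate of the quantification program.

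**Figure D2:**
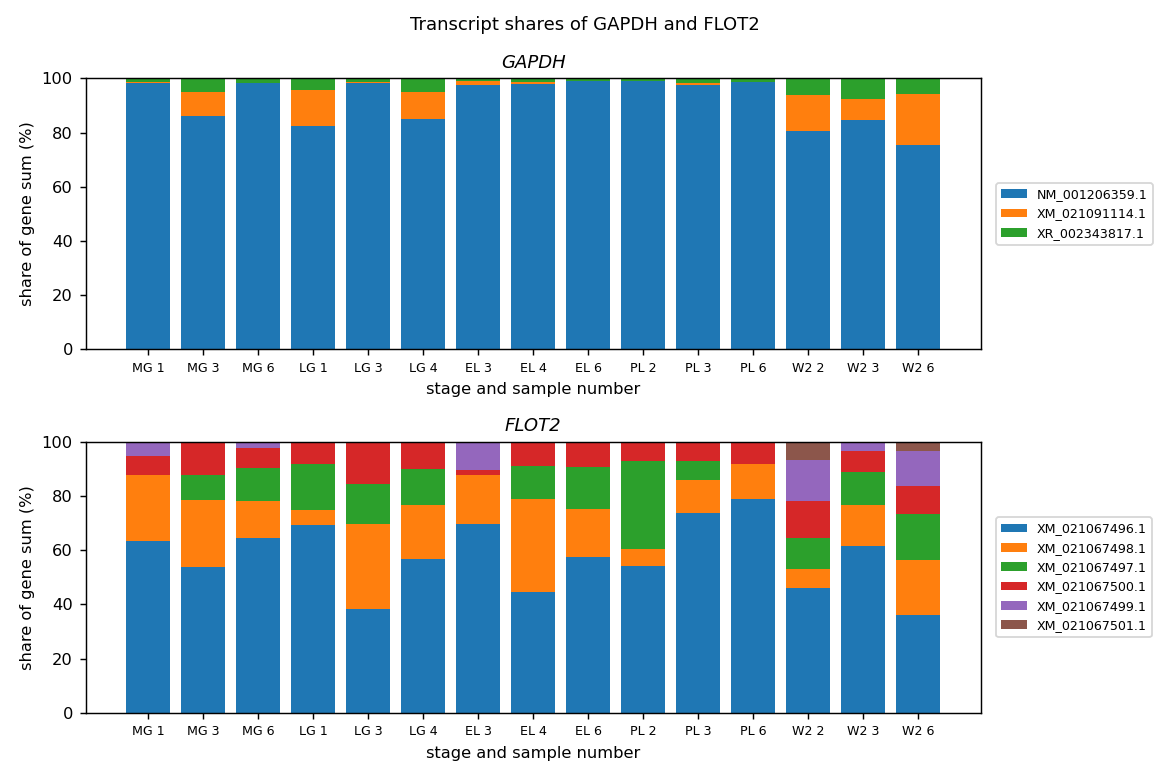
Share of each transcript in the gene sum (percent, vertical axis) for GAPDH (upper panel) and FLOT2 (lower panel) in the 15 counted samples (horizontal axis). The GAPDH main transcript held 75.2% of the gene in W2 6 and 98.9% in PL 2, and the leading FLOT2 transcript held 36.0% to 78.9%.

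HPRT1, on the X chromosome from 110321144 to 110357902 (gene ID 397351), moved more between stages than the other members. It stood at 46.4, 73.5 and 62.4 units at MG, 35.7, 32.3 and 51.8 at LG, 41.8, 21.1 and 31.2 at EL, 10.3, 18.9 and 17.2 at PL, and 58.9, 67.0 and 60.1 at W2. The means declined from 60.7 ± 13.6 in MG through 39.9 ± 10.4 and 31.4 ± 10.3 to 15.4 ± 4.54 in PL and were 62.0 ± 4.41 in W2, but LG vs MG (log2 -0.60, adjusted p = 0.95) and EL vs LG did not pass the test. HPRT1 fell from MG to PL by 1.96 on the log2 scale (SE 0.29, 0.00053) and rose 4.04-fold from PL to W2 (log2 2.01, SE 0.29, 0.00036). The latter also reached the study's rule of an absolute log2 change of at least 2, as no other member comparison did. That rule was met by 5.04% of all genes in W2 vs PL.

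Scaling left the HPRT1 pattern in place. The scaled means were 51.9, 38.2, 33.1, 20.5 and 51.0 units in stage order. PL sows stood at 18.3, 22.6 and 20.6, below the 25.2 to 59.6 units of all others. PL vs MG was -1.31 (SE 0.19, adjusted p = 0.0010) and W2 vs PL was 1.30 (SE 0.19, 0.00094). Without PL 2 these were -1.23 (0.0027) and 1.22 (0.0027). The main transcript NM_001032376.2 carried 97.5% of the gene and was the only one of the 16 transcripts called over the stages after scaling (adjusted p = 0.023), beside 1.53% of all transcripts. Its 2 other transcripts did not exceed 3.30 units in any sample.

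GUSB, on chromosome 3 from 16672071 to 16686520 (gene ID 100144519) and read from 1 transcript, NM_001123121.1, was more level within stages. It measured 27.9, 28.0 and 25.7 units on day 70 of gestation (MG) and 22.1, 19.0 and 17.4 on day 110 (LG). Lactation gave 22.9, 15.7 and 21.1 units at EL and 10.7, 14.2 and 10.9 at PL, and weaning (W2) 30.4, 23.7 and 29.3. As deposited PL lay below all other samples, and MG lay above LG and EL without overlap. However, LG vs MG (adjusted p = 0.95 by limma) and EL vs MG (0.22) did not pass the test. The share of all genes without overlap in these 2 comparisons is not given here. On the scaled values PL overlapped with LG and EL, and MG with EL. As deposited GUSB fell from MG to PL by 1.17 on the log2 scale (SE 0.18, adjusted p = 0.00074) and rose 2.28-fold from PL to W2 (log2 1.19, SE 0.18, 0.00049). After scaling these were -0.52 (SE 0.17, 0.059) and 0.48 (SE 0.17, 0.071), neither past the threshold, with 95% intervals of -0.89 to -0.15 and 0.11 to 0.85. As single transcripts, 4 of the 16 were called over the stages as deposited, namely those of GUSB and the main ones of HPRT1 and GAPDH with XR_002343817.1, beside 2.60% of all transcripts.

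ACTB, on chromosome 3 from 4084275 to 4090383 (gene ID 414396), spread widely among sows of the same stage. The gestation sows had 618, 517 and 816 units (MG) and 530, 576 and 345 (LG). Lactating sows had 371, 347 and 434 units (EL) and 286, 631 and 436 (PL), and weaned sows 889, 357 and 911 (W2). The low W2 value belonged to W2 3, whose GAPDH and HPRT1 were at 211 and 67.0 units, within or above those of the other W2 sows. GUSB was also lowest in W2 3, at 23.7 units against 30.4 and 29.3, whereas FLOT2 was highest there, at 18.7 against 17.1 and 18.2. No ACTB comparison passed the test on either scale, and W2 vs PL was 0.63 as deposited (95% interval -0.17 to 1.42) and -0.11 after scaling (-0.88 to 0.67). Its highest scaled stage mean was that of PL, at 596 ± 139 units beside 593 ± 265 in W2. Intervals of this width do not show that ACTB was level. Its main transcript XM_003124280.5 held 99.6% of the summed units.

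ACTB shares most of its coding sequence with ACTG1, the other cytoplasmic actin, and reads could have been assigned to either, so both are uncertain. The ratio of ACTB to ACTG1 was 0.612 ± 0.125 in PL (SD, n = 3) and averaged 0.291 to 0.353 in the other stages. ACTG1 averaged 787 ± 405 units in PL and 2013 ± 360 in W2, and rose between them by log2 1.49 (SE 0.33, adjusted p = 0.0039), or 0.76 (SE 0.23, 0.043) after scaling. GAPDH is likewise a gene with many processed copies in mammalian genomes, and how multiply aligned reads were counted is not given in the sources used here.

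FLOT2, on chromosome 12 from 45102205 to 45120503 (gene ID 100518752), hardly differed between stages as deposited. Its sums were 16.7, 20.6 and 16.3 units for MG, 16.8, 14.7 and 17.0 for LG, 21.2, 13.1 and 12.5 for EL, 12.3, 18.0 and 19.8 for PL, and 17.1, 18.7 and 18.2 for W2. All stages overlapped with PL, and W2 vs PL was 0.13 (95% interval -0.35 to 0.62). After scaling the 3 PL values of FLOT2, at 21.9, 21.6 and 23.7 units, lay above the 13.4 to 20.7 of all other samples. It rose from MG to PL by 0.54 (SE 0.14, adjusted p = 0.024) and was lower in W2 than in PL (-0.58, SE 0.14, 0.015). Scaling raised all PL values relative to the other stages by construction, by 0.73 in log2 relative to W2, and the FLOT2 calls were made on that scale alone. Without PL 2 they were 0.55 (adjusted p = 0.032) and -0.60 (0.022), but without PL 6 the rise from MG was not called (0.50, 0.066), nor without MG 1 (0.067) or MG 6 (0.087), and W2 vs PL was lost without W2 6 (0.051).

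The 6 FLOT2 transcripts did not keep a fixed order of abundance. The leading transcript XM_021067496.1 held between 36.0% (W2 6) and 78.9% (PL 6) of the gene. XM_021067499.1 was above 0 in all 3 W2 samples (0.623 to 2.64 units) and listed at 0 in all LG and PL samples, and XM_021067501.1 was above 0 in 2 samples, both of W2. None of the 6 passed the test over the stages on either scale.

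Of the 50 comparisons of a member between 2 stages, 11 were called as deposited and 10 after scaling, and every call involved PL. The 4 comparisons with PL share its 3 samples. As deposited the calls were GAPDH and GUSB in all 4 comparisons with PL and HPRT1 in 3. HPRT1 in PL vs EL (log2 -0.99) missed the threshold at an adjusted p of 0.058. The share of all genes called was 35.4% in PL vs MG, 21.8% in PL vs LG, 7.29% in PL vs EL and 42.8% in W2 vs PL. After scaling GAPDH was called in all 4, HPRT1 and FLOT2 in 3 each, and GUSB in none, beside 15.5%, 12.4%, 8.17% and 17.8% of all genes. Without PL 2 the counts were 13 and 12, and without PL 6 10 and 6. As deposited, GAPDH in PL vs EL was lost without EL 3 or EL 6 (adjusted p = 0.11 and 0.074), GUSB in PL vs LG without LG 1 (0.074), and GUSB in PL vs EL without MG 3, MG 6, LG 3, EL 3, EL 6 or PL 6 (0.050 to 0.15). After scaling, FLOT2 in PL vs LG was lost without LG 1, LG 3, LG 4, PL 3 or PL 6 (0.054 to 0.11), GAPDH in PL vs EL without EL 3, EL 4, EL 6 or PL 6 (0.064 to 0.082), GAPDH in PL vs LG without LG 1 (0.052) and HPRT1 in PL vs LG without LG 4 (0.058).

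In the 6 comparisons without PL no member was called on either scale. There limma called 0.00% of all genes in 5 comparisons, where 422 to 2905 genes had an unadjusted p under 0.05 as deposited and 445 to 1559 after scaling, and 0.973% in W2 vs EL as deposited and 0.322% after scaling. At an unadjusted p under 0.05 there were 19 of 50 comparisons on each scale, and GUSB in W2 vs EL (log2 0.48, unadjusted p = 0.021, adjusted p = 0.12) and HPRT1 in EL vs MG (-0.97, 0.0053, 0.18) were among them as deposited. In W2 vs MG the members differed by -0.0029 to 0.05 in log2 as deposited and all overlapped, but the 95% interval for HPRT1 ran from -0.57 to 0.68. In PL vs MG and in W2 vs PL, GAPDH, GUSB and HPRT1 did not overlap as deposited (3 of 5 members, beside 47.4% and 51.2% of all genes). After scaling FLOT2 joined them (4 of 5, beside 30.8% and 32.4%).

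**Figure D3:**
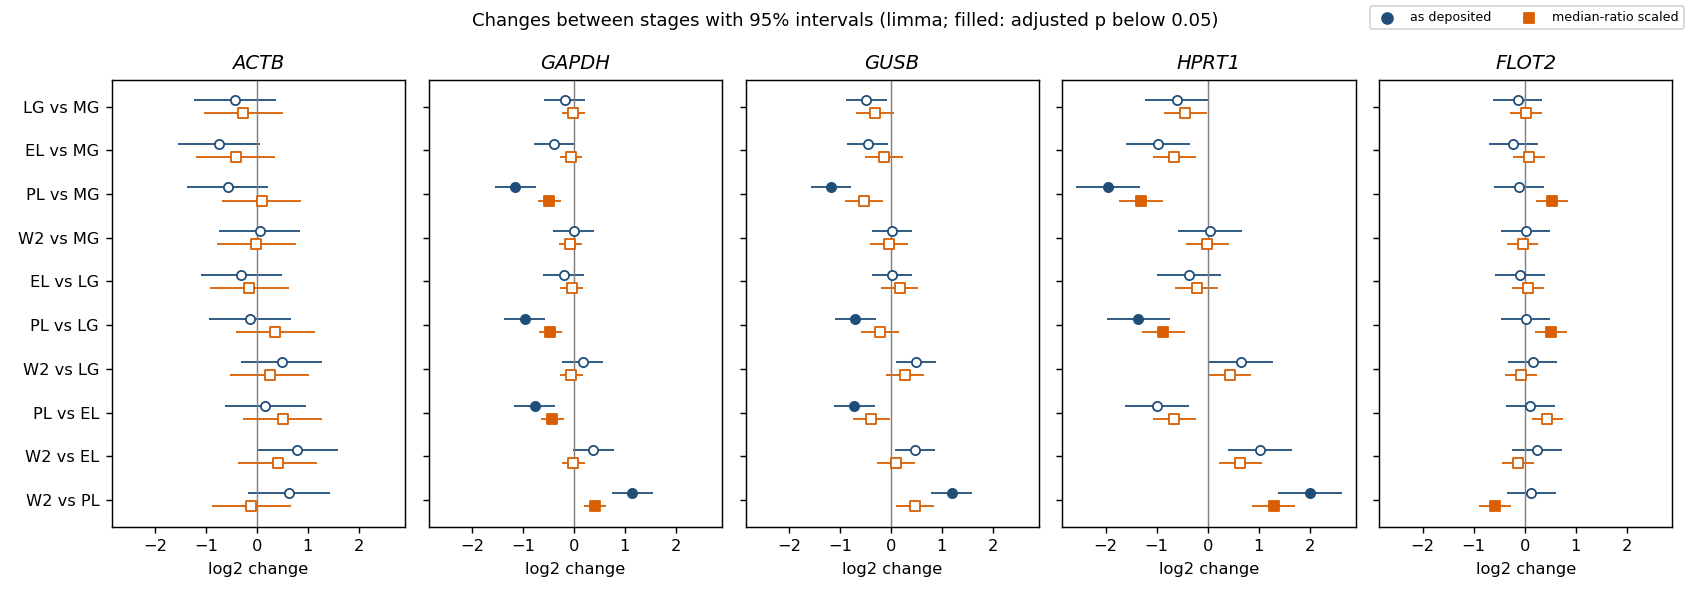
Log2 change of each reference gene (horizontal axis) in the 10 comparisons between stages (vertical axis), with 95% intervals from limma. Circles are values as deposited, squares after median-ratio scaling, and filled symbols passed an adjusted p of 0.05. The filled symbols lie in the 4 comparisons with PL, 11 as deposited and 10 after scaling.

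Some cell type markers moved in the same samples. The summed milk protein genes ranged from 112378 to 163454 units in MG, 225334 to 407077 in PL and 104466 to 138450 in W2, and 5 of 8 were called higher in PL vs MG, as were 2.41% of all genes. The 6 fibroblast markers summed to 1541 to 2336 units in MG, 472 to 1087 in PL and 1401 to 2632 in W2, and 5 of 6 were called lower in PL vs MG, beside 33.0% of all genes, and higher in W2 vs PL, beside 40.2%. After scaling 2 of 6 were called lower in PL vs MG, where 15.5% of all genes were called in either direction. Of these markers 2 were then called higher in W2 vs PL, beside 10.7% of all genes. The 8 luminal markers summed to 1429 to 2115, 931 to 2123 and 1594 to 2370 units. As deposited 0 of them were called in PL vs MG and 1 was higher in W2 vs PL. On the scaled values 1 was called higher in PL vs MG and 1 lower in W2 vs PL. Of 7 leukocyte markers analysed, 1 was called higher and 3 lower in PL vs MG as deposited, and 4 higher and 1 lower in W2 vs PL. Scaled values gave 1 higher and 1 lower in each comparison. CD14, named after its values were seen, stood at 5.78 to 9.92 units in MG, 9.23 to 298 in PL and 5.38 to 7.90 in W2. The 6 others summed to 54.0 to 88.0, 26.8 to 43.03 and 72.2 to 77.1 units. Of 6 myoepithelial markers 0 were called in PL vs MG or W2 vs PL as deposited. After scaling 2 of them were called higher in PL vs MG and 2 lower in W2 vs PL. Of 4 adipocyte markers 1 was called higher and 1 lower in each comparison as deposited. Scaled values gave 1 higher in PL vs MG and 1 lower in W2 vs PL. Of 4 endothelial markers 1 was called lower in PL vs MG and 2 higher in W2 vs PL as deposited. Scaled values gave 1 lower in each comparison. Over all genes, 2.41% were higher and 33.0% lower in PL vs MG as deposited, and 40.2% higher and 2.63% lower in W2 vs PL. With scaling 15.5% were called in PL vs MG in either direction, and 10.7% were higher and 7.06% lower in W2 vs PL. The part of cell composition in the changes of the reference genes was not tested.

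The spread of each gene over all 15 samples is a description without a test. As deposited the SD of the log2 level was 0.24 for FLOT2, 0.48 for GUSB and GAPDH, 0.53 for ACTB and 0.83 for HPRT1. After scaling it was 0.21 for GAPDH, 0.26 for FLOT2 and GUSB, 0.45 for ACTB and 0.54 for HPRT1. FLOT2 thus changed from the narrowest gene to the next one behind GAPDH. Among genes within a factor of 2 of its level, 3.06% were narrower than FLOT2 as deposited and 29.6% after scaling. For HPRT1 88.8% and 79.6% were narrower, for ACTB 44.4% and 66.9%, for GAPDH 53.7% and 28.9%, and for GUSB 48.4% and 34.0%.

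The sources of spread differed. The SD within stages was 0.49 for ACTB, nearly the whole of its total, with stage means 0.79 apart as deposited. For HPRT1 the stage means lay 2.01 apart and the SD within stages was 0.37. GAPDH had stage means 1.15 apart and 0.23 within stages, which came down to 0.48 and 0.12 after scaling. FLOT2 had stage means 0.24 apart as deposited and 0.58 after scaling.

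Ratios between members within a sample do not depend on any scaling. The log2 ratio of GAPDH to GUSB had an SD of 0.22 over the 15 samples, and that of GAPDH to HPRT1 0.40. The widest were ACTB to HPRT1 (0.74) and HPRT1 to FLOT2 (0.74). HPRT1 was above FLOT2 by 1.72 ± 0.24 in MG and 1.75 ± 0.06 in W2 (SD, n = 3), whereas in PL it was at -0.13 ± 0.17. The mean SD of a gene's 4 ratios, the M of the geNorm method, was 0.39 for GUSB and GAPDH, 0.54 for FLOT2, 0.56 for ACTB and 0.58 for HPRT1. GAPDH and GUSB both fell in PL, so a small ratio spread between them does not show that either was level.

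**Figure D4:**
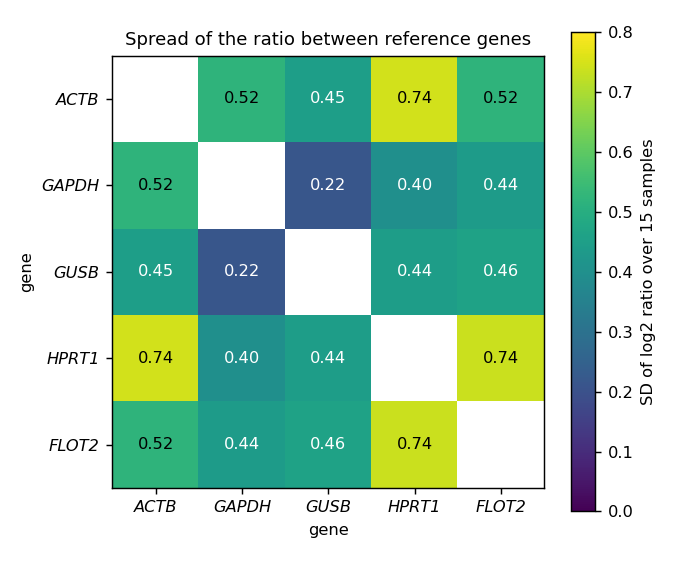
SD over the 15 counted samples of the log2 ratio between each pair of reference genes (both axes), with colour and printed number giving the SD. The narrowest pair is GAPDH and GUSB at 0.22, and the widest are those of HPRT1 with ACTB and FLOT2 at 0.74.

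When each member served as the divisor, the choice of gene changed all other genes of a sample by the same amount. The deviation of HPRT1 from the median-ratio factor averaged 0.48 (MG), 0.04 (LG), -0.17 (EL), -0.81 (PL) and 0.47 (W2). Division by HPRT1 would therefore lower each target's W2 vs PL log2 change by 1.28 compared with median-ratio scaling. For GUSB and GAPDH the shift between W2 and PL was 0.46 and 0.41, for ACTB it was -0.11 with single sows up to 0.80 away (0.08 without PL 3 and 0.35 without W2 3), and for FLOT2 it was -0.60. The geometric mean of all 5 genes shifted by 0.29 and had an SD of deviation of 0.16. As gene sums, the pair that the study used, GAPDH and TPT1, shifted by 0.06 and had an SD of 0.12, against 0.21 for GAPDH alone. Its stage means lay 0.24 apart, highest in EL and lowest in PL, and without PL 2 its shift between W2 and PL was -0.02. The 2 genes of the pair moved in opposite directions after scaling. W2 vs PL was 0.41 for GAPDH and -0.29 for TPT1, the latter not past limma's threshold (adjusted p = 0.15). The study scored single transcripts, and the pair was not computed on those here. For GAPDH the scaled W2 vs PL difference of the main transcript was smaller than that of the gene sum. TPT1 and the members are themselves among the transcripts of the table, and closeness to the median ratio is not closeness to the amount of RNA per cell.

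**Figure D5:**
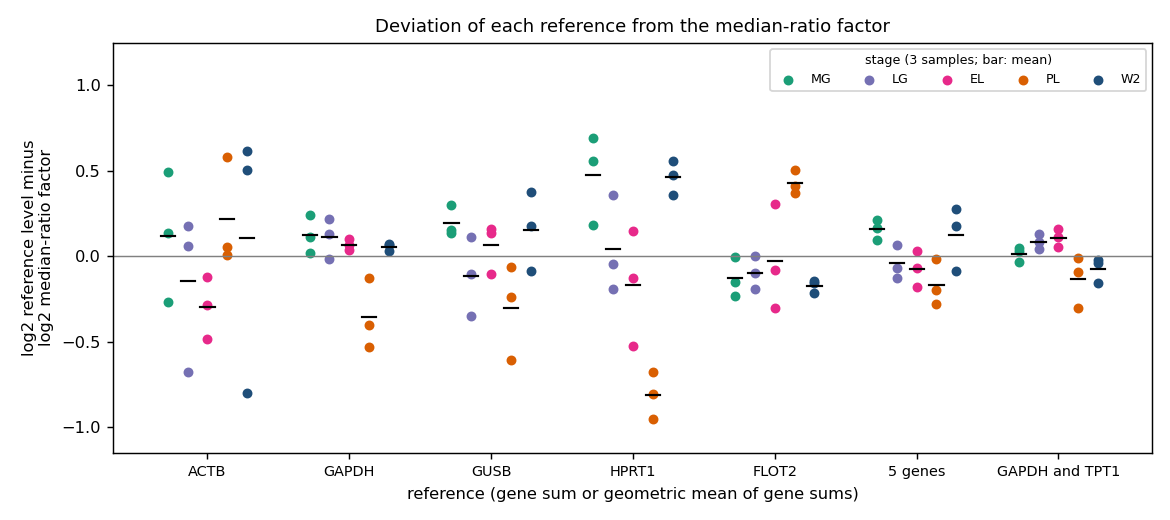
Log2 level of each reference minus the log2 median-ratio factor (vertical axis) for the 5 genes, their geometric mean and that of GAPDH with TPT1 (horizontal axis). Points are the 3 counted sows of a stage and bars are stage means. HPRT1 averaged -0.81 in PL and 0.47 in W2, and GAPDH with TPT1 averaged -0.13 and -0.07.

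The other 10 candidates of the study gave a setting for these values, and 3 of them (ATP5B, RPL32 and RPL13A) were called over the stages as deposited and 1 (RPL13A) after scaling. Of all genes, 27.1% were called as deposited and 11.7% after scaling. As deposited the stage means of TPT1 lay 0.49 apart in log2, and the largest ranges belonged to S100A6 (1.86) and RPL13A, a ribosomal protein gene (1.70). Scaled ranges were 0.35 for TPT1, 1.99 for S100A6 and 1.08 for RPL13A, which was then below RPL32 (1.18). Of 19 other genes often used as references, 8 were called over the stages as deposited and 1 after scaling, beside the same shares of all genes. Their SD ran from 0.15 for EMC7 to 1.85 for TFRC as deposited, and from 0.10 for PSMB2 to 1.85 for YWHAZ after scaling.

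The partners of each member in its own pathway were counted on the same tests. Of all genes, 40.2% were called higher and 2.63% lower in W2 vs PL as deposited, with a median of 0.71, and 10.7% and 7.06% after scaling, with a median of 0.11. Of 25 actin cytoskeleton genes other than ACTB, 16 fell in PL vs MG, beside 33.0% of all genes, and 0 rose. In W2 vs PL 17 rose, with a median of 0.87 beside the 0.71 of all genes. After scaling 4 rose and 2 fell in W2 vs PL, with a median of 0.14 beside 0.11. ARPC2, a subunit of the actin-nucleating Arp2/3 complex, rose on both scales (1.40, SE 0.22, adjusted p = 0.00062, and 0.67, SE 0.17, 0.017). The actin-severing factors DSTN (-1.06) and CFL2 (-0.87) were lower in W2 than in PL after scaling.

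Of 17 gene records for glycolytic enzymes other than GAPDH, with LDHB present as 2 records, 14 rose and 1 fell in W2 vs PL, and the median was 0.85 as deposited and 0.13 after scaling. TPI1, triosephosphate isomerase, which supplies the substrate of GAPDH, rose by 2.87 (SE 0.50, adjusted p = 0.0011), or 2.16 after scaling (SE 0.49, 0.010). PKM, the pyruvate kinase of the last step, rose by 1.23 and 0.50. HK2, a hexokinase with a mean of 0.985 units, fell by 1.08 and by 1.61. After scaling these 3 were the only calls of the list in W2 vs PL.

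Of 22 lysosomal hydrolases other than GUSB, 6 rose and 0 fell in W2 vs PL as deposited, beside 40.2% and 2.63% of all genes, with a median of 0.36 beside the 0.71 of all genes. After scaling 0 rose and 4 fell, among them NEU1 (-1.08, SE 0.22, adjusted p = 0.0054) and FUCA1 (-0.99, SE 0.26, 0.022), which cleave sialic acid and fucose. LIPA, lysosomal acid lipase, and MAN2B1, an alpha-mannosidase, each rose by 1.28 as deposited. The scaled GUSB difference was 0.48, and the scaled list median was -0.21 beside the 0.11 of all genes.

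Of 18 purine enzymes other than HPRT1, 11 rose and 1 fell in W2 vs PL, with a median of 0.96, and after scaling 5 rose and 1 fell, with a median of 0.27. ATIC, which closes the purine ring in de novo synthesis, rose by 2.21 (SE 0.20, adjusted p = 4.0e-05), and IMPDH2, the guanine branch enzyme, by 2.30 (SE 0.47, 0.0027), or 1.58 after scaling (0.024). PPAT, the first enzyme of the pathway, rose by 1.56 after scaling (SE 0.24, 0.0012). XDH, xanthine oxidoreductase, a purine-degrading enzyme that also coats milk fat globules, fell by 3.29 (SE 0.51, 0.00052), and by 4.02 after scaling.

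Of 13 membrane scaffold genes other than FLOT2, 8 rose and 0 fell in W2 vs PL, with a median of 0.98, and after scaling 1 rose and 1 fell. CAV1, the main caveolin of caveolae, rose by 1.24 (SE 0.18, adjusted p = 0.00042) and PACSIN2, a membrane-bending partner of caveolae, by 1.19 (SE 0.27, 0.0045). After scaling STOM, stomatin, was lower in W2 (-1.25, SE 0.28, 0.0097) and PHB, prohibitin, higher (0.41, SE 0.12, 0.035).

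The genes whose levels ran closest to each member were ranked by Pearson's r of the log2 level over the 15 samples, among 5734 genes with a mean of at least 10 units. These values share the fixed total of each sample. The median r over those genes was 0.75 for HPRT1 and GAPDH, 0.67 for GUSB, 0.45 for FLOT2 and 0.42 for ACTB as deposited, and -0.07 to 0.12 after scaling. HPRT1 ran closest to PARP1, SNU13 and GNL3L (r = 0.99 each), and PARP1 and SNU13 led again after scaling (0.97 and 0.96). GAPDH ran closest to COX5B (0.99), DCTN6 (0.99) and TUFM (0.98). GUSB ran closest to ILF2 (0.96), LOC110255331 (0.96) and LOC100522725 (0.95), FLOT2 to DTNBP1 (0.92), EMP2 (0.87) and TBL1X (0.86), and ACTB to DBNDD2 (0.84), TSTD1 (0.84) and MAF1 (0.81). After scaling LOC110255331 (0.87) and ILF2 (0.86) stayed among the 3 closest to GUSB. None of the genes named for GAPDH, FLOT2 or ACTB stayed among the 3 closest after scaling.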

How the data were processed

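Reads passed FastQC and Trimmomatic before alignment to Sscrofa11.1 in HISAT2, and StringTie assembled and quantified transcripts, as the authors describe. The deposited values, which the authors call FPKM, sum to between 997480 and 1002643 per sample and were treated as TPM. Transcripts under 0.5 in every stage had been removed. RUVs correction is named, and whether the deposited table includes it is not stated in the sources used here. The libraries came from a TruSeq kit that does not mark strand, so overlapping antisense genes cannot be told apart.

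Transcripts were assigned to genes by RefSeq identifier (32675 of 61773, 14907 genes). The other 29047 assembled and 51 further transcripts had no gene, so assembled transcripts at a reference gene's locus are not in its sum. Tests were run on log2(value + 0.5) with limma 3.58.1 in R 4.3.3, trended variance, 15 samples in 1 fit, Benjamini-Hochberg adjustment over all genes (or all transcripts) in each comparison and a threshold of 0.05, without a filter on low values. Fold changes are on this scale. Named genes were all members and their transcripts, the 2 largest rises and falls in W2 vs PL of each list, the 2 candidates with the smallest and the 2 with the largest range of stage means (1 of these is not reported here), and the 3 genes most like each member. ACTG1, ATP5B, EMC7, PSMB2, YWHAZ and KRT7 were named after their values were seen. Members and lists were chosen with earlier results of these data known. The script was tested on simulated data. Replicates were separate sows. No genome was at hand, so no sequences are given.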

Additional observations from a re-analysis of the deposited data

How the results depend on the processing

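Of 1140 recomputed values, 1036 were labelled the same, 93 weaker and 11 stronger. A test was the same if it kept its side of the threshold, and a count if it stayed near the main count. Spread values have no threshold and were the same if they moved by less than the SD within stages. Only the called comparisons between 2 stages could be labelled as changed in direction, and none was. Calls of members over the stages as deposited stayed at 3 in all settings that left out a sample. After scaling the 2 calls became 1 without a variance trend, 1 with the replicate block and 5 with all 6 samples per stage, and 1 to 3 when samples were left out. The 11 member comparisons became 27 with all 6 samples, 6 with the replicate block, 6 with only the compared stages fitted, and 9 to 13 when samples were left out. The 10 scaled ones became 25, 4, 2 and 6 to 12 (6 without PL 6). The 4 transcript calls became 1 without a variance trend, 11 with all 6 samples, 0 with the replicate block, 2 with quantile normalization, 1 with median-ratio scaling, and 1 to 4 when samples were left out. Calls over the stages as deposited covered 12 of 25 actin, 11 of 17 glycolytic and 2 of 22 lysosomal genes. They also covered 10 of 18 purine and 5 of 13 scaffold genes, beside 27.1% of all genes. The lists were written with earlier results of these data known, and recomputing their calls was not planned. These 40 function-list calls became 90 with all 6 samples and 17 with median-ratio scaling, beside 11.7% of all genes after scaling. They were 25 to 50 when samples were left out (25 without W2 6). The counts with all 6 samples treat the near-copies as sows. Quantile normalization lost GUSB over the stages (adjusted p = 0.20). The cause of these changes was not tested.

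The labels do not say that a replicate number marks a shared animal or batch. Deviations from the stage means correlated at a median of -0.05 in 19 pairs of samples with the same number and -0.03 in 71 pairs with different numbers. The correlation exceeded 0.1 in 7 and 14 of these pairs, and 3 of 15 samples correlated best with one of their own number, so the replicate block was not used. With it, GAPDH, GUSB and HPRT1 kept their calls in PL vs MG and W2 vs PL as deposited and lost those in PL vs LG and PL vs EL (adjusted p = 0.059 to 0.14), and of the scaled calls HPRT1 kept these 2 and FLOT2 W2 vs PL (0.0497). Counts of reads were not analysed, and n = 3 leaves wide intervals for ACTB and HPRT1.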
